A study of Mus musculus with 4 samples.

Results

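Genomic imprinting silences 1 parental copy of a gene, and many imprinted genes set the growth of the fetus. The 10 genes described here were chosen by name: H19, Meg3, Cdkn1c, Grb10 and Zim1, which are known in the mouse to be expressed mainly from the maternal copy, and Dlk1, Peg3, Mest, Plagl1 and Ndn, which are expressed from the paternal copy. They are 10 of 25746 genes named in the tables. Stroma that had been sorted from the prostates of adult C57BL/6 mice was measured by RNA sequencing, with 2 libraries from proximal ducts, next to the urethra, and 2 from distal ducts, at the tips of the lobes. Both groups were gated on Sca-1 and against lineage markers, CD24 and CD49f, and the labels name no transgene and no treatment for either. The libraries bear the numbers 2 and 3 in each region and are called proximal 2, proximal 3, distal 2 and distal 3. No label says whether they came from separate or pooled animals, so p-values rest on the spread of these libraries alone, and that spread may be technical. The tables hold no allele information, so every value sums both parental copies.

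Most of these genes are switched on in embryonic mesenchyme and placenta and are lowered after birth. In the mouse, Plagl1, a zinc finger factor, regulates other imprinted genes, among them H19, Dlk1 and Cdkn1c, and the group is therefore often described as a network. Its members act on growth in both directions: Grb10 restrains insulin and IGF receptor signalling, Cdkn1c inhibits cyclin-dependent kinases, and Mest and Peg3 are needed for normal fetal growth.

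The values are FPKM, that is mapped fragments scaled by transcript length and by library total, summed per gene. Pairs of values are given in the order of the numbers 2 and 3. Of the 10 genes, 7 were at 1 FPKM or more in 2 libraries or more and were tested among 11271 genes (Ndn, Meg3, Grb10, Mest, Cdkn1c, Plagl1 and Peg3), and 3 were not (Dlk1, Zim1 and H19). The tables list 40 transcripts for the 10 genes, of which 9 were above 0 in all 4 libraries and 14 in at least 1. None of the 10 genes had a failed estimate in any library. The number of genes at 1 FPKM or more was 11463 and 10692 in the proximal and 10936 and 10154 in the distal libraries. All 10 stromal markers examined were tested, and Ly6a, which encodes Sca-1, stood at 687 (proximal 2) and 738 FPKM (proximal 3), against 1016 (distal 2) and 868 FPKM (distal 3). Of 9 leukocyte markers 2 were tested, the highest was Cd68 with 0.749 and 1.87 FPKM in the proximal and 1.76 and 1.28 FPKM in the distal libraries, and Ptprc was at 0.120 FPKM or less. Cd24a, the gene of the CD24 that the sort was meant to exclude, stood at 8.06 and 54.6 FPKM in the proximal and 9.64 and 19.1 FPKM in the distal libraries, and other epithelial markers were present too, as given below.

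For several genes the values came from 1 annotated transcript and so from 1 start site. For Mest and Grb10 the RefSeq table gives promoters at starts several kilobases apart, and in both genes the values lay at 1 of the starts shown, so these promoters are shown beside that of Meg3, whose main transcript also begins at the start shown. The sequences are RefSeq promoters of build GRCm38.p6, the assembly called mm10 in the labels. Each runs from 250 bases before the start to 50 after it, 5′ to 3′, and capitals mark CG dinucleotides, the sites of the DNA methylation that carries imprints.
Mest upstream start, chr6:30733256-30733555, plus strand: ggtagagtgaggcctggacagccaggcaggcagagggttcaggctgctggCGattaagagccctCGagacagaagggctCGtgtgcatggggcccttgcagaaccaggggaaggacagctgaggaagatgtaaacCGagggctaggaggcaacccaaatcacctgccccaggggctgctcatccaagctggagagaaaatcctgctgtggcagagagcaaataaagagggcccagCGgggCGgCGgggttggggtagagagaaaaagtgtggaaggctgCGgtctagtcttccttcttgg
Mest downstream start, chr6:30737800-30738099, plus strand: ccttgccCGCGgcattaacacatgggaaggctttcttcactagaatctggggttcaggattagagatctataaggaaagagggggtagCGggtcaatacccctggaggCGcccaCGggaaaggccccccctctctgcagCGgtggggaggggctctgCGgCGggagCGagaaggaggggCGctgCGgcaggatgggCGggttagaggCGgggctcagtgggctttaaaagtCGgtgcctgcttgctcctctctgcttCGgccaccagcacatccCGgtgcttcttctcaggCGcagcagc
Grb10 upstream start, chr11:12037371-12037670, minus strand: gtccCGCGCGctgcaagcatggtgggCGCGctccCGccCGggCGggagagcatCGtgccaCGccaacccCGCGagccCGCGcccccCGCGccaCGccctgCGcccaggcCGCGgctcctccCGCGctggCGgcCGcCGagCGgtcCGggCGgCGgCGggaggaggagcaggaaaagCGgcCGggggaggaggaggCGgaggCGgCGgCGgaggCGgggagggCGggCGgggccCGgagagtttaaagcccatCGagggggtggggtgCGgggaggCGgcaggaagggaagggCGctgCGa
Grb10 downstream start, chr11:12027922-12028221, minus strand: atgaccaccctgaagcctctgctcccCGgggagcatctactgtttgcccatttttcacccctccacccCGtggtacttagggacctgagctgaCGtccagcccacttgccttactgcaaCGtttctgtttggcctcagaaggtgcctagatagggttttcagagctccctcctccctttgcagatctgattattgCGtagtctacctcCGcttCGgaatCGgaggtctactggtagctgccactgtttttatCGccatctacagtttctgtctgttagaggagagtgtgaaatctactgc
Meg3, chr12:109540746-109541045, plus strand: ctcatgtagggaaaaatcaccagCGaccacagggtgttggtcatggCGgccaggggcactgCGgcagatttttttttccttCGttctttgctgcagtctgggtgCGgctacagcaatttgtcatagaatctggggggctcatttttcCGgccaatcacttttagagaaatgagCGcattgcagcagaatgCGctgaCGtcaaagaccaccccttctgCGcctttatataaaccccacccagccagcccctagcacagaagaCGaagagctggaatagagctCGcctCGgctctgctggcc

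At the downstream Mest start, transcripts summed to 7.44 (proximal 2) and 29.4 FPKM (proximal 3), against 5.80 (distal 2) and 17.9 FPKM (distal 3), while the transcript from the upstream start was listed at 0 in all 4 libraries. The downstream window holds 17 CG dinucleotides and the upstream window 8. For Grb10, transcripts from the upstream start summed to 13.7 and 23.9 FPKM across the proximal pair, against 16.6 and 25.6 FPKM across the distal pair, and the transcript from the downstream start was listed at 0 in all of them. The upstream Grb10 window holds 45 CG dinucleotides, more than 98.1% of the 32817 promoters in the RefSeq table, and the downstream window holds 9, against a median of 7. The Meg3 window holds 13. Which start a fragment belongs to was decided by the authors' quantification, and genes that every cell uses were also listed at 0 in some libraries (Polr2b, an RNA polymerase subunit, at 0 in proximal 2 and distal 2), so a listed 0 need not mean an unused start.

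Motifs were searched on both strands of these windows and of the other promoters in the table, which holds 12 promoters for 8 of the 10 genes. The GC box GGGCGG, which contains a CG dinucleotide itself and is bound by Sp1, had 5 matches in the upstream Grb10 window, 1 in each Mest window and none in the Meg3 window, and 35.6% of all promoters hold it. The TATA box TATAAA had 2 matches in the Meg3 window, 1 on each strand, and 13.6% of promoters hold it. The letters GGGGCCCC, the kind of GC-rich element that Plagl1 binds, had 1 match in the Peg3 promoter and none in the other member promoters of the table, against 1.07% of all promoters. AAGATGGC, a YY1-type element, had no match in them, against 2.74% of promoters.

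Mest and H19 also host microRNAs, miR-335 in a Mest intron and miR-675 in an H19 exon. Their mature sequences (RefSeq, GRCm38.p6) are shown because the levels of their hosts lay far apart, with the seed, bases 2 to 8, in capitals.
miR-335-5p: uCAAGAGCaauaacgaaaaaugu
miR-335-3p: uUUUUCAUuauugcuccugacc
miR-675-5p: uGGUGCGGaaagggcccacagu
miR-675-3p: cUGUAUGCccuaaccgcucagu
No 2 of these seeds are the same. The Mir335 hairpin was listed at 0 in all 4 libraries, and libraries of this kind do not measure mature microRNAs, so the values above speak of the host transcript only.

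Levels per length differed widely among the 10 genes. Ndn, which encodes necdin, a growth-suppressing MAGE protein, was highest with a mean of 58.4 FPKM over the 4 libraries, above 90.1% of tested genes. Meg3, a long non-coding RNA, followed at 32.8 FPKM, Grb10 at 20.0 FPKM, Mest at 15.1 FPKM, Cdkn1c at 14.9 FPKM, Plagl1 at 12.7 FPKM and Peg3 at 3.08 FPKM. The ranges of Grb10, Mest, Cdkn1c and Plagl1 over the libraries overlapped, so their order within the 12.7 to 20.0 FPKM span lies inside the spread. The ranges of Ndn and Meg3 also overlapped (37.8 to 77.5 FPKM and 27.5 to 41.3 FPKM), while all 4 Meg3 values lay above all 4 of Cdkn1c, Grb10, Plagl1 and Peg3.

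**Figure D1:**
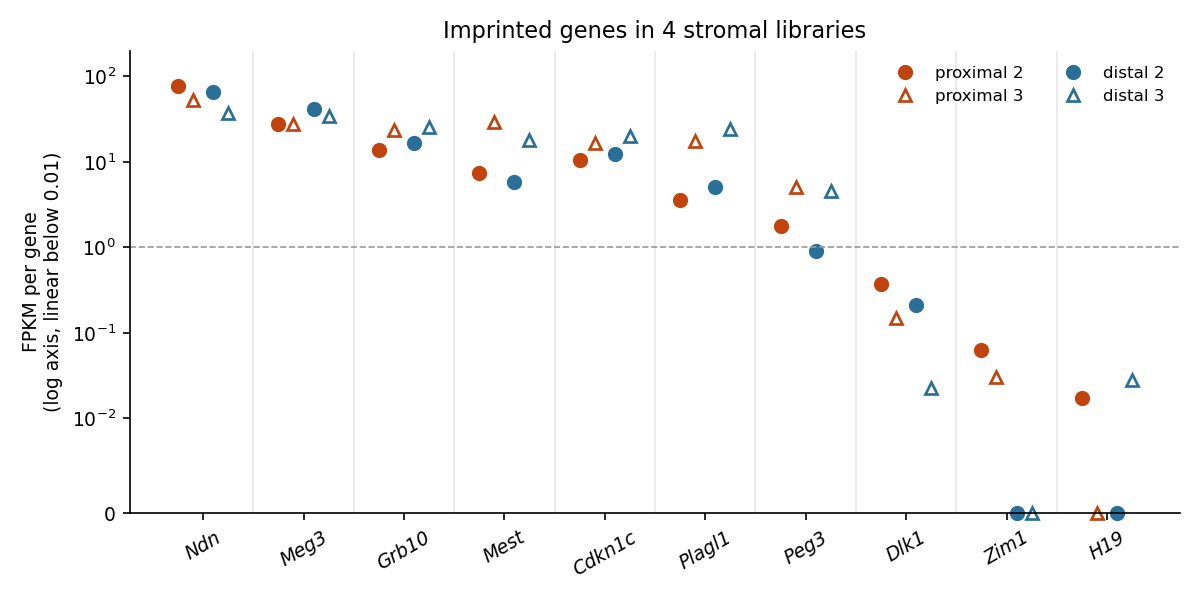
Each point is the FPKM of 1 gene in 1 library, on an axis that is logarithmic above 0.01 and linear below it. Proximal libraries are left of distal ones, circles are libraries numbered 2 and triangles those numbered 3, and the dashed line is 1 FPKM. Ndn is highest with 37.8 to 77.5 FPKM, and Dlk1, Zim1 and H19 stay below 0.4 FPKM in every library.

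At the low end, H19, the long non-coding RNA that is abundant in fetal tissue, stood at 0.017 FPKM in proximal 2 and was listed at 0 in proximal 3, and it was listed at 0 in distal 2 and stood at 0.028 FPKM in distal 3. The highest upper bound that the authors' tables give for an H19 transcript in any library was 0.054 FPKM. Its neighbour Igf2, the paternally expressed growth factor gene, was likewise low, at 0.404 and 0.465 FPKM across the proximal pair, against 0.504 and 0.428 FPKM across the distal pair. Zim1, a zinc finger gene next to Peg3, stood at 0.063 (proximal 2) and 0.030 FPKM (proximal 3) and was listed at 0 in both distal libraries. Dlk1, a membrane protein of the Notch ligand family that marks preadipocytes, stood at 0.371 (proximal 2) and 0.150 FPKM (proximal 3), against 0.214 (distal 2) and 0.023 FPKM (distal 3). None of these 3 genes was tested, and the regions overlapped for Dlk1 and H19.

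In the comparison of regions, with region as the only term, none of the 7 tested genes passed the test, and neither did any other gene. The limma fit called 0 of 11271 genes higher in proximal stroma (0% of genes) and 0 lower (0%), and the lowest adjusted p among them was 0.198. Before adjustment, 254 genes were higher in proximal stroma (2.25%) and 102 lower (0.905%) at p under 0.05 in this fit, with 0 of the 7 imprinted genes among them. Without distal 2 the fit called 36 genes higher and 4 lower, and without distal 3 it called 21 and 5, again with 0 of the 7. The adjusted p was 0.99991 for each of the 7 in the limma fit by region alone. With library number as a further term, 314 of 11271 genes were called higher in proximal stroma and 151 lower, with 0 of the 7. No label says what the numbers mark, so that fit is given as an alternative below. For a single gene, exact permutation of 4 libraries has 0.333 as its lowest two-sided p. These are bulk libraries, in which fewer cells of a type and less RNA per cell cannot be told apart. Positions below are from GENCODE M21 on mm10.

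Of the 7 tested genes, Meg3 was the 1 whose regions did not overlap. It is a tumour-suppressor-like RNA made from the maternal copy of the Dlk1 to Dio3 cluster, on chromosome 12 at 109541001 to 109571726 (plus strand). Meg3 stood at 27.5 (proximal 2) and 28.1 FPKM (proximal 3), against 41.3 (distal 2) and 34.4 FPKM (distal 3). Both proximal libraries lay below both distal libraries, as they did for 8.64% of all tested genes. The regions did not overlap, in either direction, for 1 of the 7 genes and for 21.6% of all. It had a mean of 27.8 ± 0.434 FPKM on the proximal side and 37.8 ± 4.89 FPKM on the distal side (SD, n = 2 libraries each), a log2 difference of -0.43 ± 0.32 (SE).

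Nearly all of the Meg3 value came from a transcript of 1503 bases at the 5′ end of the gene. It held 94.6% and 96.4% of the gene's FPKM in the proximal and 95.9% and 97.1% in the distal libraries. Its value had deposited bounds of 24.0 to 28.0 FPKM in proximal 2 and 25.0 to 29.1 FPKM in proximal 3, against 37.0 to 42.2 FPKM in distal 2 and 31.2 to 35.6 FPKM in distal 3. No proximal bound reached a distal one, but these bounds cover the estimate within a library and not the spread between libraries. A transcript of 11472 bases, which starts further downstream, was at 1.49 and 1.01 FPKM across the proximal pair, against 1.69 and 0.991 FPKM across the distal pair, where the regions overlapped. Markers of Schwann cells and neurons had the same order of regions, with sums of 7.49 and 14.0 FPKM across the proximal pair, against 15.5 and 21.2 FPKM across the distal pair. They were led by Uchl1 (3.47, 6.17, 8.64 and 13.4 FPKM in the order proximal 2, proximal 3, distal 2 and distal 3), and Sox10 was at 0.068 FPKM or less. Their part in the Meg3 values was not tested.

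The other non-coding RNAs of the cluster, chosen after their values were seen, also had both proximal values below both distal values. Rian, which carries small nucleolar RNAs, stood at 1.05 and 1.75 FPKM across the proximal pair, against 2.59 and 2.15 FPKM across the distal pair, a log2 difference of -0.50 ± 0.40 (SE, adjusted p = 0.99991, limma). Mirg, a microRNA host, stood at 0.284 and 0.738 FPKM against 0.833 and 0.807 FPKM and was not tested. The protein genes of the cluster did not follow: Dio3, which inactivates thyroid hormone, stood at 3.66 and 15.8 FPKM across the proximal pair, against 3.90 and 6.77 FPKM across the distal pair, with overlapping regions, and Rtl1, a retrotransposon-derived gene, at 0.319 and 0.151 FPKM against 0.137 and 0.187 FPKM.

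**Figure D2:**
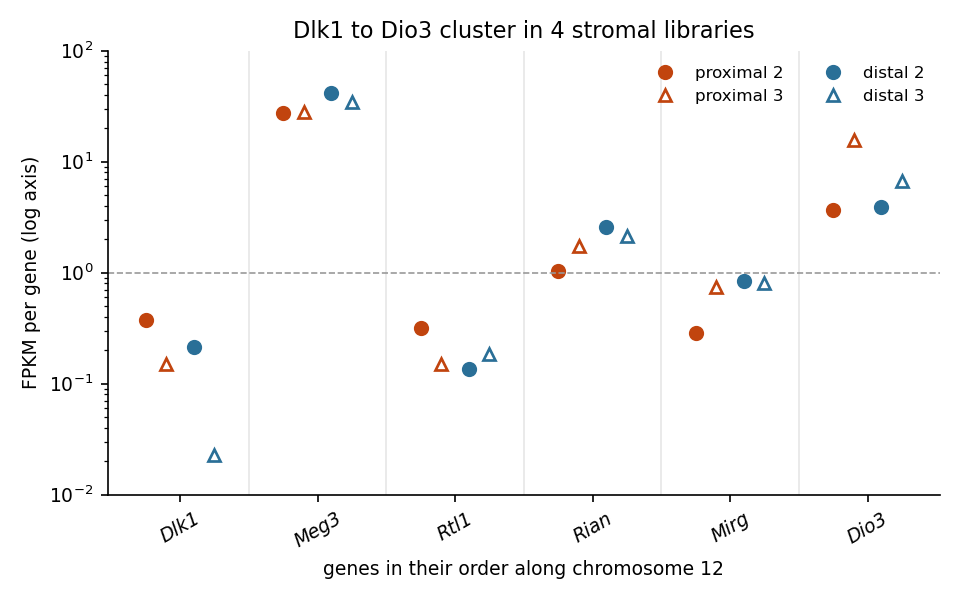
FPKM (log axis) of 6 genes of the Dlk1 to Dio3 cluster in their order along chromosome 12, with proximal libraries left of distal ones; circles are libraries numbered 2, triangles those numbered 3, and the dashed line is 1 FPKM. For Meg3, Rian and Mirg both proximal points lie below both distal points, and for Dlk1, Rtl1 and Dio3 the regions overlap.

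Plagl1 had the widest spread of the tested members. It lies on chromosome 10 at 13060504 to 13131694 (plus strand) and stood at 3.59 (proximal 2) and 17.4 FPKM (proximal 3), against 5.11 (distal 2) and 24.6 FPKM (distal 3). Both libraries numbered 3 were high and both numbered 2 low, and the regions overlapped. The highest library was 6.83-fold above the lowest, while the log2 difference between regions was -0.44 ± 0.96 (SE). All of the value came from 1 of 7 listed transcripts, whose deposited bounds were 16.4 to 18.4 FPKM in proximal 3 and 3.24 to 3.95 FPKM in proximal 2, so the gap between libraries of 1 region was wider than the estimate's error within a library.

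Mest, which encodes a hydrolase-like protein of embryonic mesoderm, showed the same order of numbers with the proximal library higher in each. It lies on chromosome 6 at 30723547 to 30748465 (plus strand), and with the FPKM given above it had a mean of 18.4 ± 15.5 FPKM on the proximal side and 11.8 ± 8.56 FPKM on the distal side (SD, n = 2 libraries each), a log2 difference of 0.50 ± 0.81 (SE). The regions overlapped, since proximal 2 lay below distal 3. The 3′ end of Mest overlaps that of Copg2 on the other strand and the kit does not mark strand, so fragments from there cannot be told apart. Copg2 stood at 5.23 (proximal 2) and 3.94 FPKM (proximal 3), against 6.12 (distal 2) and 3.40 FPKM (distal 3). These values are for the whole gene, and the part of Copg2 fragments in the Mest values was not tested.

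Peg3, a zinc finger factor on chromosome 7 at 6703892 to 6730431 (minus strand), stood at 1.76 (proximal 2) and 5.10 FPKM (proximal 3), against 0.920 (distal 2) and 4.54 FPKM (distal 3). Here too both libraries numbered 3 lay above both numbered 2, and the log2 difference between regions was 0.33 ± 0.71 (SE).

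The growth inhibitors Cdkn1c and Grb10 varied less. Cdkn1c, on chromosome 7 at 143458339 to 143461050 (minus strand), stood at 10.5 (proximal 2) and 16.7 FPKM (proximal 3), against 12.5 (distal 2) and 20.0 FPKM (distal 3), a log2 difference of -0.24 ± 0.44 (SE). Grb10, on chromosome 11 at 11930508 to 12038683 (minus strand), had a log2 difference of -0.18 ± 0.44 (SE), from the FPKM given with its promoter. For both genes the regions overlapped and the libraries numbered 3 lay above those numbered 2.

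The Cdkn1c value was divided between 2 transcripts of the same ends, 1904 and 1942 bases long. The longer one held 32.6% and 42.9% of the gene's FPKM in proximal 2 and proximal 3, against 15.4% and 23.9% in distal 2 and distal 3, so both proximal shares lay above both distal shares. Among 3022 genes with a second transcript of at least 1 FPKM on average, 13.2% had both proximal shares above both distal ones and 12.6% below. With the highest single transcript in place of the sum, the Cdkn1c difference was -0.57. The division between such similar transcripts is an estimate by the authors' quantification, and the difference in shares was not tested.

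Ndn went the other way between numbers. It lies on chromosome 7 at 62346569 to 62350262 (plus strand) and stood at 77.5 (proximal 2) and 52.8 FPKM (proximal 3), against 65.6 (distal 2) and 37.8 FPKM (distal 3). Both libraries numbered 2 lay above both numbered 3, as for 50.4% of all tested genes, and the regions overlapped. It had a mean of 65.2 ± 17.4 FPKM on the proximal side and 51.7 ± 19.7 FPKM on the distal side (SD, n = 2 libraries each), a log2 difference of 0.36 ± 0.42 (SE). The tested genes nearest to Ndn in centred log2 value over the 4 libraries, out of 11270, were Ercc5, Pla2g15 and Shkbp1, with root mean square distances of 0.0068, 0.020 and 0.022.

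Of the 7 genes, Mest, Ndn and Peg3 had higher and Plagl1, Meg3, Cdkn1c and Grb10 lower proximal means on the log2(FPKM + 1) scale, which understates the change of low genes. Their median was -0.18, beside 0.09 over all tested genes, of which 60.4% had a higher proximal value. Under quantile normalization the median of all genes was -0.03 and that share 46.8%. Relative to the median of all genes the 7 differences ran from -0.54 (Plagl1) to 0.40 (Mest). The 3 tested genes of maternal expression (Meg3, Cdkn1c and Grb10) had lower proximal means, and of the 4 of paternal expression 3 had higher and 1, Plagl1, a lower proximal mean, none of them past the test. This split turned with 1 library left out, where region is partly mixed with library number. Each of the 7 genes had the same sign in both numbers, but the share of all tested genes that did so was not counted. Without proximal 2 or distal 3 the differences were 0.56 and 0.59 for Plagl1, 0.070 and 0.078 for Cdkn1c and 0.20 and 0.12 for Grb10. Without distal 3 that of Ndn was -0.035. Without proximal 3 or distal 2 they were -0.43 and -0.24 for Mest and -0.24 and -0.43 for Peg3.

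**Figure D3:**
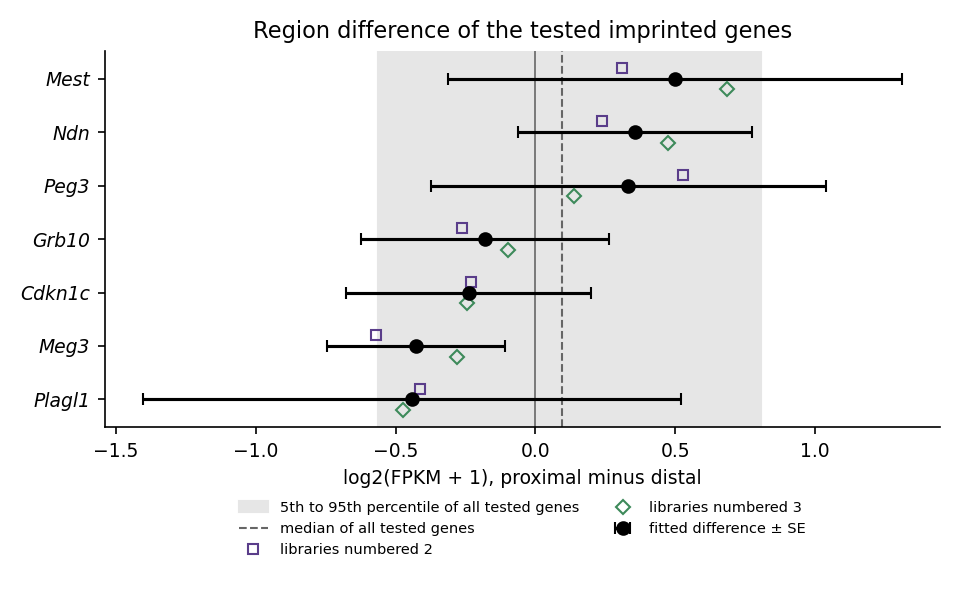
Black points are the fitted differences of log2(FPKM + 1), proximal minus distal, of the 7 tested imprinted genes, with bars of 1 SE. Open squares and diamonds give the difference between the 2 libraries numbered 2 and the 2 numbered 3, the dashed line is the median of all tested genes (0.09), and the grey band spans their 5th to 95th percentile (-0.56 to 0.81). All 7 fitted values lie inside the band, from -0.44 (Plagl1) to 0.50 (Mest). Each gene has the same sign in both numbers, and the share of all tested genes that do so was not counted.

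Except for Meg3, the larger differences lay between library numbers, with the same sign in both regions. For Meg3 the log2 difference of number 3 minus number 2 was 0.031 in proximal and -0.26 in distal stroma. Its difference between regions was -0.43. Both libraries numbered 3 lay above both numbered 2 for 5 of the 7 genes (Plagl1, Mest, Peg3, Cdkn1c and Grb10), against 20.2% of all tested genes, and below them for Ndn. The FPKM of Plagl1 was 4.84-fold higher in proximal 3 than in proximal 2 and 4.81-fold higher in distal 3 than in distal 2. For Mest the same ratios were 3.95 and 3.09, for Peg3 2.89 and 4.94, for Grb10 1.74 and 1.54 and for Cdkn1c 1.59 and 1.60. On the log2(FPKM + 1) scale 3 genes, Plagl1, Mest and Peg3, were at least 2-fold higher in number 3 in both regions, against 3.47% of all tested genes. The median of all tested genes went the other way, at -0.36 for proximal 3 minus proximal 2 and -0.31 for distal 3 minus distal 2. What the numbers stand for is not given in the labels, so these differences carry no test.

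**Figure D4:**
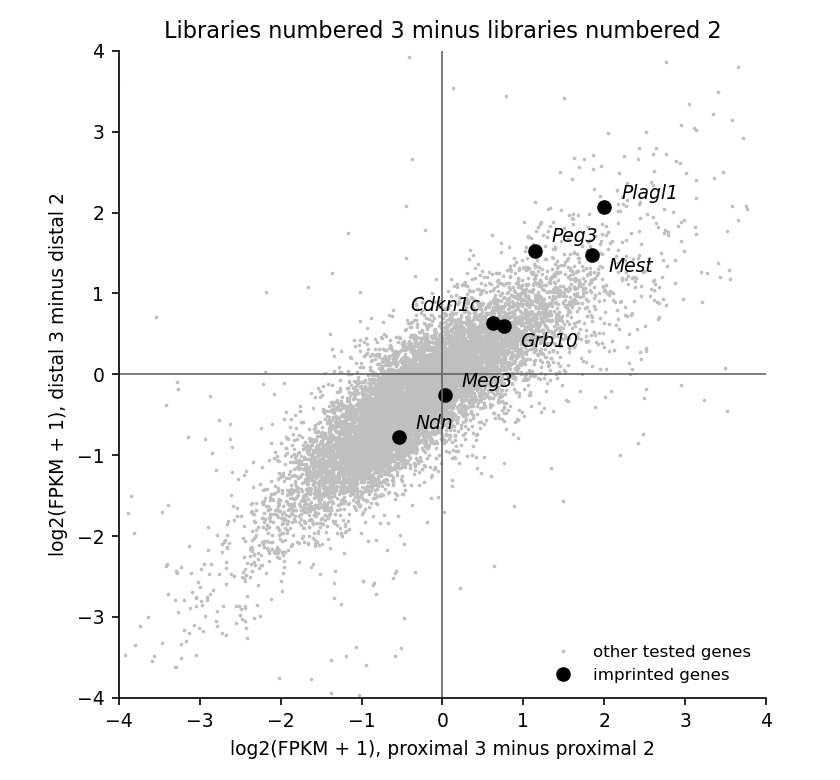
Each point is 1 tested gene, with the difference of log2(FPKM + 1) between proximal 3 and proximal 2 on the x axis and between distal 3 and distal 2 on the y axis; the imprinted genes are black and 26 genes beyond 4 in either direction are not drawn. Plagl1, Mest and Peg3 sit at more than 1 on both axes, Cdkn1c and Grb10 between 0.59 and 0.76, Meg3 near 0 and Ndn below 0 on both.

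Markers of epithelium moved with the same libraries. All 12 epithelial markers examined, Cd24a among them, were above 0 in each library, and their summed level was 71.3 (proximal 2) and 512.6 FPKM (proximal 3), against 52.0 (distal 2) and 123 FPKM (distal 3). Of the 10 that were tested, all had higher proximal means without passing the test, and 8 lay higher in both libraries numbered 3 than in both numbered 2, among them the simple epithelial keratin Krt8, at 8.55 and 68.8 FPKM across the proximal pair, against 4.63 and 11.3 FPKM across the distal pair. The highest library of these markers, proximal 3, was also the highest for Mest and Peg3 but not for Plagl1, Cdkn1c and Grb10, which were highest in distal 3. Their part in the values of Mest, Peg3, Plagl1, Cdkn1c and Grb10 was not tested. Preadipocyte and adipocyte markers, of interest beside Dlk1, summed to 30.6 and 33.4 FPKM against 22.3 and 18.5 FPKM. Among them Fabp4, a fatty acid binding protein, stood at 4.98 and 15.0 FPKM across the proximal pair, against 0.220 and 2.21 FPKM across the distal pair (log2 difference 2.31 ± 0.73, SE, adjusted p = 0.99991, limma). Pparg stood at 0.755 and 2.14 FPKM against 0.163 and 0.149 FPKM, while Adipoq and Plin1 were at 0.053 FPKM or less. The regions overlapped for Lpl, at 13.4 and 8.90 FPKM against 12.2 and 11.1 FPKM. They also overlapped for Cd36, at 0.034 and 0.173 FPKM against 0.164 and 0.263 FPKM. Of the 4 tested adipocyte markers, 3 had higher and 1, Lpl, a lower proximal mean. Pericyte markers summed to 16.6 (proximal 2) and 31.8 FPKM (proximal 3), against 23.3 (distal 2) and 35.2 FPKM (distal 3). This sum had the order of libraries seen for Plagl1, Cdkn1c and Grb10, but no single marker of the list had it. Mcam stood at 3.63 and 16.8 FPKM against 3.81 and 13.7 FPKM. Cspg4 stood at 7.25 and 7.73 FPKM against 15.1 and 17.7 FPKM. Both its proximal values lay below both distal ones, as for Meg3 and for 8.64% of all tested genes. Abcc9 went the other way, at 1.97 and 4.11 FPKM against 0.539 and 1.17 FPKM. Of the 4 tested pericyte markers, 3 had higher and 1 a lower proximal mean. Smooth muscle markers summed to 354 and 191 FPKM against 389 and 270 FPKM. The part of pericyte, smooth muscle and adipocyte markers in the values of the imprinted genes was not tested.

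Among 49 other imprinted genes, 48 were measured and 27 tested, and 0 passed in either direction. Of the 27, 16 had higher and 11 lower proximal means, with a median log2 difference of 0.06, beside 0.09 over all tested genes. The regions did not overlap for 3 of them, against 21.6% of all tested genes, and 2 of the 3 were lower in proximal stroma. The largest differences were those of Nnat, a small membrane protein of neurons, at 0.884 and 3.94 FPKM across the proximal pair, against 1.98 and 7.74 FPKM across the distal pair (log2 difference -0.74 ± 0.75, SE), of Blcap, the gene in whose intron Nnat lies, at 9.51 and 16.5 against 15.1 and 23.3 FPKM (-0.54 ± 0.45), and of Tssc4, a neighbour of Cdkn1c, at 22.1 and 15.0 against 12.2 and 12.5 FPKM (0.53 ± 0.38). Without strand, fragments of Nnat and of Blcap precursor RNA may be confused. Both libraries numbered 3 lay above both numbered 2 for 9 of the 27 and below for 13, against 20.2% and 50.4% of all tested genes. The highest levels in this list were those of Gnas, which encodes a G protein subunit, at 643.7 and 384.3 FPKM across the proximal pair, against 771.4 and 497.4 FPKM across the distal pair.

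Relatives and partners of the members likewise held no gene that passed. Of 10 relatives, 6 were tested, with a median log2 difference of 0.06. In this list Cdkn1a, the p21 inhibitor related to Cdkn1c, was at 83.3 (proximal 2) and 354.0 FPKM (proximal 3), against 117.6 (distal 2) and 241.0 FPKM (distal 3), above Cdkn1c in every library, while Cdkn1b, the p27 inhibitor, stayed between 2.77 and 5.63 FPKM (Cdkn1a was chosen after its values were seen). Plagl2, the relative of Plagl1, stood at 1.26 and 3.29 FPKM across the proximal pair, against 1.68 and 3.75 FPKM across the distal pair, the same order of libraries as Plagl1. The zinc finger protein Zfp57, which protects imprints and was placed in the same list, stood at 4.49 and 1.28 FPKM against 2.17 and 0.754 FPKM.

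All 14 signalling partners were tested, with a median of 0.03, and the largest differences were those of Igf1, at 72.4 and 33.9 FPKM across the proximal pair, against 104.5 and 64.1 FPKM across the distal pair (-0.71 ± 0.49, SE), the insulin receptor substrate Irs1 (0.55 ± 0.52) and the Notch ligand Jag1 (-0.43 ± 0.39). Insr and Igf1r, the receptors that Grb10 binds, stood at 8.29 and 3.91 FPKM against 4.48 and 3.86 FPKM and at 3.17 and 2.41 FPKM against 4.49 and 3.17 FPKM. Of 12 genes that maintain or erase imprints or related marks, 10 were tested, with a median of -0.06. Eed, a Polycomb subunit, had a difference of -0.36 ± 0.35 (SE), Tet2, which oxidises methylcytosine, of -0.26 ± 0.40 and the DNA methyltransferase Dnmt3a one of 0.24 ± 0.53, all with an adjusted p of 0.99991 (limma). Both proximal libraries lay below both distal ones for 2 of the 10, Eed and Tet2, and for 8.64% of all tested genes. In either direction the regions did not overlap for 2 of the 10, against 21.6% of all.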

How the data were processed

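Per the labels' protocols, RNA of the sorted cells was made into cDNA from random and oligo-dT primers (SMART-Seq v4), a PCR-amplified preparation without strand information. Per the submitters' processing notes, the build was mm10 and the tools were Cufflinks 0.0.6, TopHat2 0.6 and bcl2fastq 1.8.3. The deposited tables give FPKM with lower and upper bounds and a coverage signal for 63241 transcripts, per the file headers. The number of fragments per library was not used here and absolute depth is unknown. As a relative measure of it, the ratio of the deposited coverage signal to FPKM had a median of 5.22 (proximal 2), 5.38 (proximal 3), 5.68 (distal 2) and 6.34 (distal 3). Median half-widths of the deposited bounds were 13.8% to 14.8% between 1 and 10 FPKM and 6.40% to 7.14% between 10 and 100 FPKM, and they cover estimation error only.

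Gene names came from the position of each transcript in GENCODE M21 (55612 of them, 87.9%, holding 96.3% of summed FPKM) and FPKM was summed per gene. A transcript took the name of a gene whose transcript matched its span and length (score of at least 0.8, no rival within 0.8 of it), or whose exons lay within 100 bp of both its ends, or that alone overlapped it (at least 0.5, others under 0.25). Genes with a failed or capped estimate were left out (7 at the filter used). Values were tested as log2(FPKM + 1) with limma 3.58.1 in R 4.3.3 (two-sided; model term region alone; trended empirical Bayes; Benjamini-Hochberg over 11271 genes, threshold 0.05). The fit was tested on simulated data in which libraries varied independently, so that test does not show its power for the differences given here. The remaining steps ran in Python 3.11.15 (pandas 2.3.3, matplotlib 3.10.9).

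All 10 members are named, and of each other list the called genes or, with 0 called, the 3 tested genes with the largest absolute log2 difference. Marker lists are given by their sums, except those of stroma and leukocytes, which are given by counts and single markers. The endothelial list (7 genes, 4 tested, 0 called) is not described. Markers named from the lists were chosen after their values were seen. Members, lists and tests were chosen with earlier results of these data known. Alternatives covered the pseudocount, the filter on low values, scaling, the replicate block, the highest single transcript per gene and each library left out. The share of fragments from each parental copy was not analysed here.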

Additional observations from a re-analysis of the deposited data

How the results depend on the processing

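Each of the 7 tested imprinted genes was refitted with a pseudocount of 0.1 or 5, without a filter, with a filter of 5 FPKM (which left Peg3 out), with quantile or upper quartile scaling, with a replicate block and with the highest single transcript per gene. Each kept its direction under all of these that could be run, and 0 passed under any. The filters and the block cannot change a gene's own log2 difference, so they say nothing about direction. The highest single transcript could change it only for Meg3 and Cdkn1c, as the values of the others came from 1 transcript. The log2 difference stayed between -0.45 and -0.38 for Meg3, between 0.35 and 0.53 for Mest and between -0.57 and -0.32 for Plagl1, and the largest move was that of Cdkn1c, to -0.57 with the highest single transcript. The replicate block called 314 genes higher in proximal and 151 higher in distal stroma, against 0 and 0 without it, and 0 of the 7. Before adjustment it put 2464 genes under 0.05, against 356 without it, and 3 of the 7 (limma, unadjusted p and adjusted p: Mest 0.034 and 0.191, Plagl1 0.0434 and 0.213, Meg3 0.0478 and 0.223). No label says what the numbers mark; deviations of same-numbered libraries from their region's mean had a correlation of 0.815 across genes. Same-numbered libraries correlated at 0.952 in both pairs, against 0.869 within proximal and 0.911 within distal stroma. With 2 pairs this is a hint from the data, not the design.

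With 1 library left out, the lone library of a region is assumed to vary like the others, and region is then partly mixed with library number. Genes called ranged from 0 to 36 (higher in proximal, highest without distal 2) and from 0 to 5 (higher in distal, highest without distal 3), with 0 of the 7 among them. Meg3 kept its direction in all 4 such fits, between -0.56 and -0.30. Both its proximal values lay below both distal values, so leaving out 1 library could not turn its sign. These fits therefore add nothing on its direction. The other ranges crossed 0: -1.47 to 0.59 for Plagl1, -0.43 to 1.42 for Mest, -0.43 to 1.10 for Peg3, -0.56 to 0.078 for Cdkn1c, -0.56 to 0.20 for Grb10 and -0.035 to 0.75 for Ndn. Without proximal 2 or distal 3 the sign turned for Plagl1, Cdkn1c and Grb10, without distal 3 also for Ndn, and without proximal 3 or distal 2 for Mest and Peg3. By construction, each such fit mixes part of the gap between numbers 3 and 2 into the region difference. Compared within a number, the 7 genes kept their signs, as with Plagl1 at -0.41 (number 2) and -0.47 (number 3). The share of all tested genes with the same sign in both numbers was not counted, so this does not set the 7 apart. Why the numbers differ was not tested. Depth is unknown, and 4 libraries limit every comparison here.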
